A study of Drosophila melanogaster with 3 samples.

Results

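The Drosophila melanogaster genes for aminoacyl-tRNA synthetases were examined for binding of Su(H) near their transcription starts. They were chosen by symbol from the protein-coding genes of the Ensembl annotation. A symbol qualified when it held one or more amino acid codes followed by RS, with or without the suffix -m. The rule used no measured value and found 33 genes among 13968 protein-coding genes on the chromosome arms. Of these, 15 carry the suffix -m and are called mitochondrial here, and the 18 without it are called cytoplasmic. The split rests on the symbol alone. For 6 of the 18 the set holds no -m gene of the same name. Whether any of the 18 also serve the mitochondrion was not examined. The subunit genes of the cytoplasmic phenylalanyl enzyme, alpha-PheRS and beta-PheRS, fall outside the rule and are described with other genes of the pathway.

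The assay was ChIP-seq, in which DNA held by a protein is precipitated with it and sequenced, on whole embryos of mixed sex, 0 to 24 h old. All 3 libraries were biological replicates of 1 group, a transgenic line with Su(H) carrying GFP at its C-terminus, and were precipitated with an antibody to GFP per the sample descriptions. One label field names Su(H) as the antibody target. The regulatory sequence that drives the transgene is not given in the sources used here. A control library was not analysed here, so no value has a background subtracted beyond what the authors did. As whole embryos were used, binding in more cells and stronger binding per cell cannot be told apart.

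An aminoacyl-tRNA synthetase joins 1 amino acid to its matching transfer RNAs, which carry it to the ribosome. Animal cells keep a cytoplasmic set for proteins encoded in the nucleus and a mitochondrial set for the few proteins encoded by mitochondrial DNA. Both sets are encoded by nuclear genes. Su(H) is the DNA-binding protein of the Notch pathway, and it turns target genes on together with the Notch intracellular domain and holds them down with corepressors. Many promoters of broadly expressed Drosophila genes carry a DNA replication-related element (DRE), the site of the factor DREF, or other core motifs such as motif 1.

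The stretches before 6 synthetase starts are shown as examples with or without the sequence features sought. Each is read 5′ to 3′ on the strand of the gene in dm6 (RefSeq Release 6 genome), ends at the base before the start and is cut where another exon begins. Capitals mark the DRE, TATCGATA, in the first 4 and the E-box, CACGTG, in that of LeuRS-m. In the stretch of GluProRS none of the searched motifs was found. At AlaRS, ArgRS, IleRS and GluProRS the summit of the pooled list lay farther upstream, outside the stretch. The stretch of AlaRS is chr2L:8381765-8381820 (minus strand), that of ArgRS is chrX:15844146-15844245 (minus strand), and that of IleRS is chr3L:22288565-22288664 (plus strand). The stretch of TrpRS is chr3R:9266905-9267004 (minus strand), that of LeuRS-m is chr3L:4825753-4825852 (plus strand), and that of GluProRS is chr3R:23958392-23958491 (minus strand).
AlaRS: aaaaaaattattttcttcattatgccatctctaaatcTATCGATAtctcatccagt
ArgRS: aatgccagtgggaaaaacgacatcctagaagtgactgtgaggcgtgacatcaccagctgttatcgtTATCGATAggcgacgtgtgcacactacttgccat
IleRS: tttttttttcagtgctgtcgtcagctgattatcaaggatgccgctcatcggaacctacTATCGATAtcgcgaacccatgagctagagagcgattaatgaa
TrpRS: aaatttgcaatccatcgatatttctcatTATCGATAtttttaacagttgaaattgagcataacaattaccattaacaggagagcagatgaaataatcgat
LeuRS-m: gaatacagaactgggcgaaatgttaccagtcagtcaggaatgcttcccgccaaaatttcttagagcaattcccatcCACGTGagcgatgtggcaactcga
GluProRS: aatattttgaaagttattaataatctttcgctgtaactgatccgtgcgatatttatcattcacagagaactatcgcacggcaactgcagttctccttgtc

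The cytoplasmic enzymes had promoter peaks more often than the mitochondrial ones. A promoter peak here is a summit within 500 bp of any annotated start of the gene. In the thresholded list, made by the authors from the pooled and replicate lists, 8 of 18 cytoplasmic genes (44.4%) had one, against 1 of 15 mitochondrial genes (6.67%). Among all protein-coding genes the share was 19.4% (2703 of 13968), so the cytoplasmic share lay above the background and the mitochondrial share below it. Over both sets it was 9 of 33 (27.3%). The cytoplasmic genes were SerRS, GluProRS, IleRS, ThrRS, ArgRS, GlnRS, AspRS and TrpRS, and the mitochondrial gene was LeuRS-m. With 1 group there was no contrast to test, and the counts are descriptions.

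The wider lists gave the same order. Each replicate list and the pooled list hold 30000 peaks and include background by design. The thresholded peaks are the 3833 strongest of the pooled list, so the thresholded and pooled counts are not independent. In the pooled list 17 of 18 cytoplasmic genes (94.4%) and 7 of 15 mitochondrial genes (46.7%) had a promoter summit, beside 54.4% of all genes. A summit was listed in every replicate for 12 cytoplasmic genes (66.7%) and 5 mitochondrial genes (33.3%), beside 37.4% of all genes. These replicate summits need not mark the same site. With the stricter demand that every replicate has a summit within 200 bp of the strongest pooled promoter summit, chosen after the values were seen, 12 cytoplasmic genes (66.7%) and 3 mitochondrial genes (20%) remained, beside 32.4% of all genes. The mitochondrial genes were AlaRS-m, LeuRS-m and PheRS-m.

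**Figure D1:**
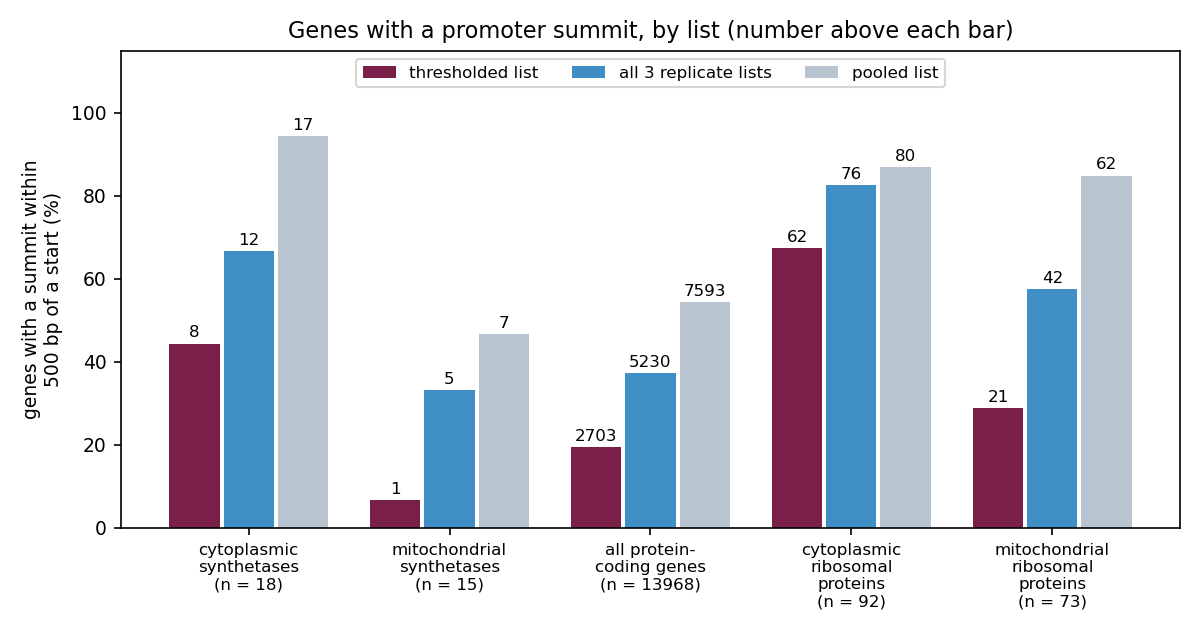
Bars give the percentage of genes with a summit within 500 bp of a start in the thresholded list, in all 3 replicate lists and in the pooled list, with the number of genes above each bar. Of the cytoplasmic synthetases 8 had a thresholded summit and of the mitochondrial ones 1, beside 2703 of 13968 genes.

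SerRS, which charges serine transfer RNA, had the highest signal of the set. Its replicate signals were 120, 124 and 119, in the authors' signal units, which are not stated to be scaled for depth (121 ± 2.64, SD, n = 3). The replicates lay close together, at ranks 445, 406 and 465 of the 30000 peaks of each list. The pooled peak, at rank 422 with a signal of 368, spans 2L from 3037342 to 3037526, and 97.4% of all genes had a lower pooled promoter signal or none. Its width of 185 bp is below the list's median of 416 bp.

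GluProRS encodes a single bifunctional protein that charges both glutamate and proline transfer RNAs. Its replicate signals were 85.3, 89.0 and 76.5 (83.6 ± 6.39, SD, n = 3). All lay below every SerRS value, and within each replicate GluProRS was second among the synthetases. The pooled peak had rank 886 and spans 3R from 23958378 to 23958793.

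IleRS and ThrRS, the isoleucyl and threonyl enzymes, came next. The IleRS signals were 66.2, 77.3 and 70.7 (71.4 ± 5.55, SD, n = 3), with a pooled peak at rank 1132 on 3L from 22288340 to 22288755. The ThrRS signals were 56.4, 64.2 and 70.8 (63.8 ± 7.22, SD, n = 3), with a pooled peak at rank 1380 on 2L from 12103368 to 12103783. The ranges of this pair overlapped, and in replicate 3 ThrRS was marginally the higher, so their order is within the spread of the replicates. The IleRS value of replicate 2 also exceeded the lowest GluProRS value.

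ArgRS, the arginyl enzyme, had signals of 52.9, 50.4 and 55.2 (52.8 ± 2.40, SD, n = 3). These lay below all IleRS and ThrRS values. The pooled peak had rank 1800 and spans X from 15844095 to 15844510. GlnRS, the glutaminyl enzyme, had signals of 47.2, 34.2 and 38.3 (39.9 ± 6.66, SD, n = 3), with a pooled peak at rank 2983 on 3R from 25265553 to 25265968. All 3 GlnRS values lay below those of ArgRS.

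AspRS, the aspartyl enzyme, varied more. It has 3 annotated starts, and the strongest summits near any of them had signals of 62.0, 39.4 and 31.4 (44.3 ± 15.9, SD, n = 3). The pooled peak, at rank 3231, spans 2R from 12879964 to 12880379, inside the gene and beside an internal start. In replicates 1 and 2 the strongest summit lay at that site, but in replicate 3 it lay at the 5′ start. At the pooled site itself replicate 3 had a signal of 14.5, at rank 21202. The mean at that site was then 38.7 ± 23.8 (SD, n = 3).

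TrpRS, the tryptophanyl enzyme, lay just inside the threshold, at pooled rank 3802 of the 3833 thresholded peaks. Its signals were 35.5, 27.3 and 35.6 (32.8 ± 4.76, SD, n = 3), and its pooled peak spans 3R from 9266732 to 9267147. The GlnRS, AspRS and TrpRS ranges overlapped. Within each replicate GlnRS lay above TrpRS. AspRS lay above both in replicates 1 and 2 and below both in replicate 3, so its place in the order was not fixed.

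LeuRS-m, the leucyl enzyme of the mitochondrion, was the mitochondrial gene with a thresholded summit. Its signals were 43.1, 24.5 and 65.7 (44.4 ± 20.7, SD, n = 3), and the replicates lay far apart. Its rank was 2982 in replicate 1, 7791 in replicate 2 and 1453 in replicate 3. The pooled peak had rank 2522 and spans 3L from 4825603 to 4826018. Of the 9 thresholded genes, 7 had an SD below 20% of their mean, and AspRS and LeuRS-m did not.

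Just outside the threshold lay PheRS-m and AsnRS. PheRS-m, the mitochondrial phenylalanyl enzyme, had pooled rank 4064 and replicate signals of 48.5, 37.5 and 14.9 (33.6 ± 17.1, SD, n = 3). AsnRS, the asparaginyl enzyme, had pooled rank 4307 and signals of 57.2, 46.9 and 22.3 (42.2 ± 17.9, SD, n = 3). The AsnRS summit of replicate 3 lay 254 bp inside the gene, and at the pooled site, 25 bp before the start, replicate 3 had 12.2 at rank 28158 (38.8 ± 23.6, SD, n = 3). For both, replicates 1 and 2 exceeded all 3 TrpRS values and replicate 3 fell below all 3. The threshold therefore parts genes whose replicate values overlap.

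**Figure D2:**
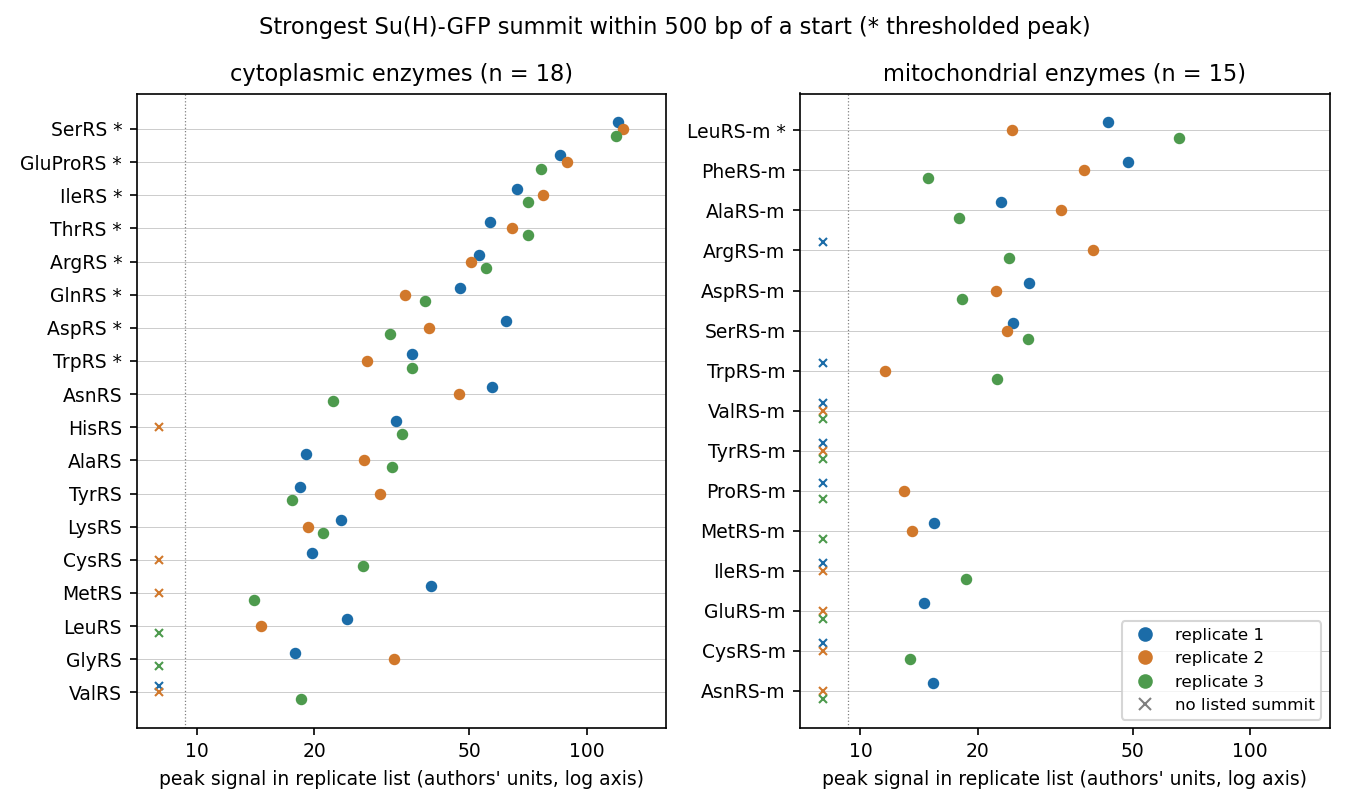
Points give the signal of the strongest summit within 500 bp of a start in each of 3 replicate lists, on a log axis, and crosses left of the dotted line mark replicates with no listed summit. SerRS lies highest, at 119 to 124, and most mitochondrial genes have crosses or values under 30.0, while LeuRS-m reaches 65.7 in replicate 3.

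The other cytoplasmic genes were weaker or less regular. AlaRS, LysRS and TyrRS were listed in every replicate. AlaRS, the alanyl enzyme, had 19.1, 26.8 and 31.7, TyrRS, the tyrosyl enzyme, had 18.4, 29.6 and 17.5, and LysRS, the lysyl enzyme, had 23.4, 19.2 and 21.1. The LysRS summit of replicate 2 lay 296 bp from the pooled one, and at the pooled site replicate 2 had 16.1. CysRS, GlyRS, HisRS, LeuRS and MetRS had a pooled promoter summit but lacked one in a replicate. HisRS, the histidyl enzyme, had 32.4 in replicate 1 and 33.6 in replicate 3 and none in replicate 2, with pooled rank 5305. MetRS, the methionyl enzyme, had 40.0 in replicate 1, none in replicate 2 and 14.0 in replicate 3. ValRS, the valyl enzyme, was listed in replicate 3 alone, at 18.5, and had no pooled promoter summit.

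Of the other mitochondrial genes, AlaRS-m, AspRS-m, PheRS-m and SerRS-m were listed in every replicate. AlaRS-m had 22.9, 32.7 and 17.9, and AspRS-m had 27.1, 22.2 and 18.2. The AspRS-m summit of replicate 2 lay 235 bp from the pooled one, and replicate 2 had none within 200 bp of it. SerRS-m had 24.7, 23.8 and 26.9 and looked regular by value, but its summit lay 435 bp inside the gene in replicate 1, and at -498 and -469 bp from the start in replicates 2 and 3. ArgRS-m and TrpRS-m had a pooled summit but none in replicate 1. AsnRS-m, CysRS-m, GluRS-m, IleRS-m, MetRS-m and ProRS-m appeared in replicate lists only, with signals from 12.9 to 18.6. The highest of these was IleRS-m in replicate 3, at rank 13612 of 30000. The lowest listed values were 14.5, 11.0 and 11.7 in replicates 1, 2 and 3. TyrRS-m and ValRS-m had no promoter summit in any list.

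The typical cytoplasmic gene had a higher signal than the typical mitochondrial gene in each replicate. Over the 18 cytoplasmic genes the median of the strongest promoter signal was 37.7, 30.8 and 31.5 in replicates 1, 2 and 3, with unlisted genes ranked lowest (33.4 ± 3.81, SD, n = 3). Over the 15 mitochondrial genes it was 14.6, 12.9 and 14.9 (14.1 ± 1.06, SD, n = 3). The lowest cytoplasmic median exceeded the highest mitochondrial one. The difference was 23.2, 17.9 and 16.6 in signal units (19.2 ± 3.50, SD, n = 3), and the ratio was 2.36 ± 0.242 (SD, n = 3). The mitochondrial median lay near the median over all genes, 15.1, 12.3 and 13.6, and sat close to the lowest signal listed, so the ratio depends on where the lists end.

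Cytoplasmic and mitochondrial genes with the same amino acid in their symbol form 12 pairs. In 6 pairs both genes had a pooled promoter summit, and the cytoplasmic gene had the higher signal in 5 of these. In 5 other pairs, those of asparagine, cysteine, isoleucine, methionine and tyrosine, the cytoplasmic gene was listed and the mitochondrial one was not, so no signals could be compared. The SerRS signal was 368 and that of SerRS-m 52.3, and ArgRS had 166 where ArgRS-m had 69.0. AlaRS and AlaRS-m were nearly equal, at 73.8 and 73.6. Leucine was the exception, with 51.8 at LeuRS and 137 at LeuRS-m. For valine neither gene had a pooled promoter summit. GluProRS, outside these pairs, had 246, while GluRS-m and ProRS-m, which serve the same amino acids, had no pooled promoter summit. The pooled list gives 1 value per gene, so these pairs carry no replicate error.

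Every thresholded synthetase summit lay before its start. The 9 pooled summits lay between 195 and 33 bp upstream, with a median of 112 bp, and all were within 200 bp. Among all genes with a thresholded promoter summit, 81.9% had it upstream, 74.7% within 200 bp, and the median position was 89 bp upstream. The GluProRS summit lay farthest out, 195 bp upstream, and that of SerRS nearest, at 33 bp. At each of the 9 sites every replicate had a summit within 97 bp of the pooled one. In the pooled list 16 of 17 cytoplasmic summits lay upstream, but only 3 of 7 mitochondrial ones, beside 64.1% over all genes.

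**Figure D3:**
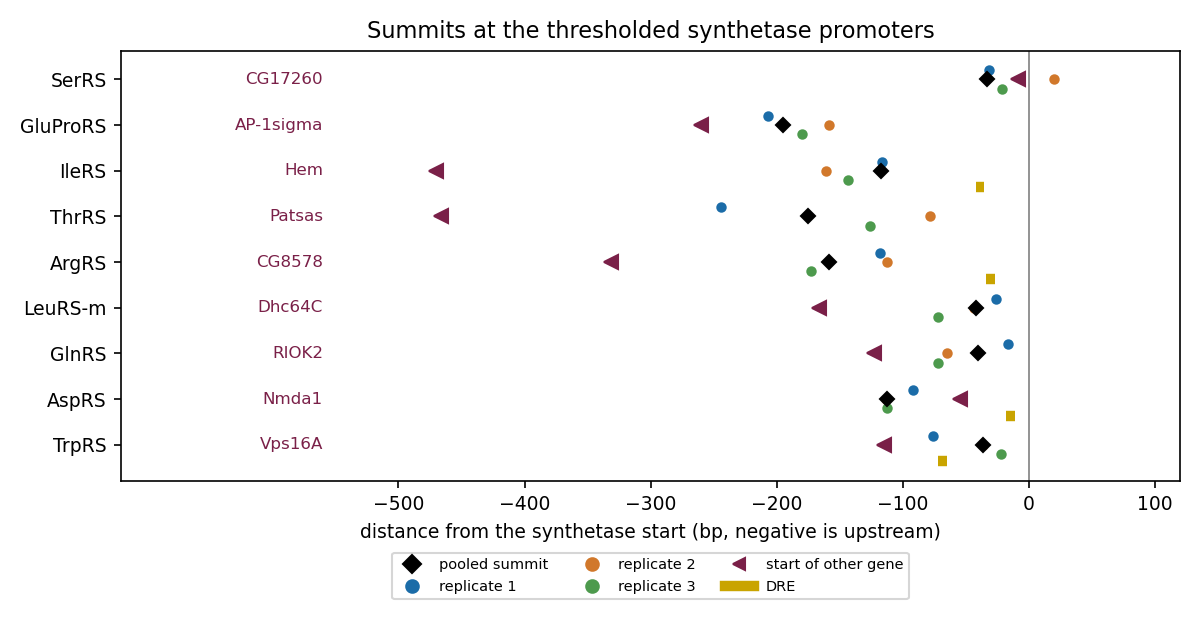
Diamonds mark the pooled summit and circles the nearest summit of each replicate, in bp from the synthetase start nearest the pooled summit, for the 9 thresholded genes. Triangles mark the start of the gene on the other strand and bars the DRE. All 9 pooled summits lie between 195 and 33 bp before the start, and some circles are hidden behind a diamond.

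All 9 thresholded summits also lay within 500 bp of the start of another protein-coding gene on the opposite strand, so none can be assigned to the synthetase alone. At SerRS the start of CG17260 lies 8 bp before the SerRS start, and the summit was 25 bp from the former and 33 bp from the latter. At GluProRS the summit was 65 bp from the start of AP-1sigma, a subunit of a clathrin adaptor, and 195 bp from GluProRS. At AspRS it was 58 bp from the start of Nmda1 and 112 bp from the internal AspRS start. At these 3 genes the neighbour's start was the nearer.

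At the other 6 genes the synthetase start was the nearer. The IleRS summit lay 117 bp from IleRS and 353 bp from Hem, a subunit of the actin-regulating WAVE complex. The ThrRS summit lay 175 bp from ThrRS and 291 bp from Patsas, and the ArgRS summit 158 bp from ArgRS and 173 bp from CG8578. The LeuRS-m summit lay 42 bp from LeuRS-m and 124 bp from Dhc64C, the heavy chain of cytoplasmic dynein. The GlnRS summit lay 40 bp from GlnRS and 83 bp from RIOK2, which in yeast acts in maturation of the small ribosomal subunit. The TrpRS summit lay 36 bp from TrpRS and 79 bp from Vps16A, part of a complex for fusion with the lysosome. In 7 of the 9 cases the summit lay between both starts, and at SerRS and AspRS it lay beyond the neighbour's start.

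Divergent neighbours were common among the synthetases. A coding start on the opposite strand lay within 500 bp upstream of 14 of 18 cytoplasmic genes (77.8%) and 7 of 15 mitochondrial genes (46.7%), beside 27.3% of all genes. The thresholded summits fell among these genes, at 8 of the 14 cytoplasmic and 1 of the 7 mitochondrial ones. None of the 4 cytoplasmic and 8 mitochondrial genes without such a neighbour had one. Over all genes the shares were 37.6% with a divergent neighbour and 12.5% without. Against genes of the same arrangement, the cytoplasmic share of 57.1% lay above 37.6% and the mitochondrial share of 14.3% below it. This split was chosen after the values were seen, and its part in the cytoplasmic and mitochondrial counts was not tested.

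**Figure D4:**
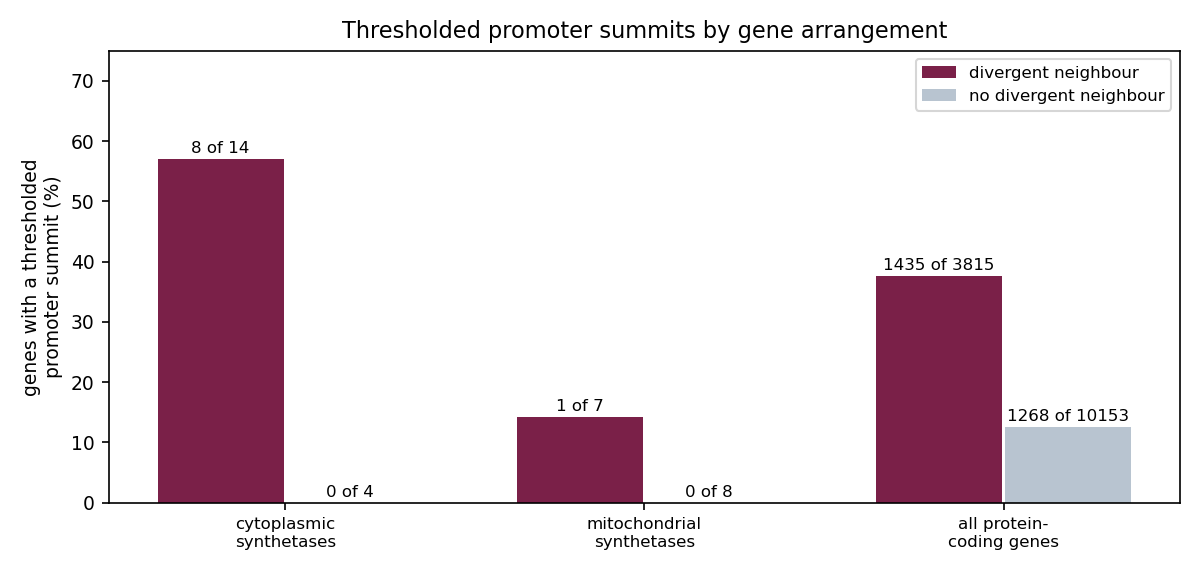
Bars give the percentage of genes with a thresholded promoter summit, split by whether a coding start on the opposite strand lies within 500 bp upstream, with counts above the bars. The synthetases with a summit all have a divergent neighbour, 8 of 14 cytoplasmic and 1 of 7 mitochondrial, beside 1435 of 3815 genes.

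The number of annotated starts also differed between the sets. A gene with more starts has more places for a summit to count, and 7 of 18 cytoplasmic but 2 of 15 mitochondrial genes had 2 or more. Among genes with 1 start, 4 of 11 cytoplasmic genes (36.4%) and 1 of 13 mitochondrial genes (7.69%) had a thresholded summit, beside 14.7% of all genes with 1 start. The cytoplasmic share was again the higher.

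Some members lay near a strong summit that counts for another start. The summit nearest ValRS in the thresholded list lay 518 bp from its start, just past the limit, and 5 bp from the start of Kdm4B. At AlaRS a thresholded summit of pooled rank 895 lay 1091 bp from the start and 6 bp from that of Rcd4. Upstream of LeuRS-m, besides its promoter summit, thresholded summits lay 768 and 971 bp from the start, at pooled ranks 2815 and 1214. The farther one had a pooled signal of 209, above the 137 of the promoter summit. The coding start nearest to both was that of Dhc64C, 602 and 805 bp away. These nearby summits were chosen for mention after their values were seen. HisRS held a thresholded summit inside the gene, 922 bp from its start, at pooled rank 3253, and its start coincides with that of a transcript of Bx on the same strand. TyrRS and GluRS-m lie in tandem on 3L, 171 bp apart, and neither had a thresholded promoter summit.

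Of the motifs sought, the DRE was found at the most synthetase starts. It was sought, with the other motifs, on both strands from 250 bp before to 50 bp after the start. Where a gene has several starts, the one nearest its strongest pooled promoter summit was used, or the 5′ start without such a summit. The window of such genes thus depended on the peaks, and at AspRS it was set at the internal start. TATCGATA was present at 6 of 33 genes (18.2%), 5 of 18 cytoplasmic (27.8%) and 1 of 15 mitochondrial (6.67%), beside 9.16% of all genes. Counting the start base as 0, its first base lay at -19 in AlaRS, -34 in ArgRS, -18 in AspRS, -42 in IleRS, -72 in TrpRS and 0 in PheRS-m. Among genes with a thresholded promoter summit it was at 4 of 9 synthetases (44.4%) and 14.9% of all genes. Among genes without one it was at 2 of 24 synthetases (8.33%) and 7.77% of all genes. The AlaRS stretch shown above has the element without a thresholded summit within 500 bp, and the GluProRS stretch has a strong summit upstream without the element.

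The distance from the pooled summit to the centre of the DRE varied between genes. It was 32 bp at TrpRS, 79 bp at IleRS, 98 bp at AspRS and 128 bp at ArgRS, which had thresholded summits. It was 87 bp at PheRS-m and 239 bp at AlaRS, which had none. The whole element lay within 100 bp of 2 of 9 thresholded synthetase summits (22.2%), beside 9.23% of the 2167 thresholded promoter summits. No test was made on these small counts.

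Su(H) sites were found at these promoters about as often as at the promoters of all protein-coding genes. Of the sequences CGTGAGAA, CGTGGGAA, TGTGAGAA and TGTGGGAA, which are recognition sites of Su(H), 1 of 33 synthetases had a match (3.03%), beside 3.28% of all genes. The match was in SerRS, 203 bp from the summit. Within 100 bp of the 9 thresholded synthetase summits there was none, beside 3.51% of the 2167 thresholded promoter summits. So few summits cannot tell a share of that size from none. These letters being missing from the windows says nothing about other ways in which the protein may be held there.

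The other motifs were found in a few genes. The motif 1 core, GGTCACACT, was at 4 of 33 synthetases (12.1%), GlnRS, AspRS-m, AsnRS-m and ProRS-m, beside 5.94% of all genes. The E-box, CACGTG, was at GlnRS and LeuRS-m (6.06%), beside 4.29% of all genes. At both genes it lay within 100 bp of the thresholded summit. That is 2 of 9 thresholded synthetase summits (22.2%), beside 3.23% of the 2167 thresholded promoter summits, and was not tested. At LeuRS-m the centre of the E-box was 21 bp from the summit. The GAGA repeat, GAGAGAG, was at ArgRS-m, beside 6.49% of all genes.

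Other genes of the pathway were taken from a list of 11. A thresholded promoter summit was at 3 of them (27.3%), GatA, beta-PheRS and GatC, again beside 19.4% of all genes. GatA and GatC encode subunits of the mitochondrial amidotransferase that makes glutaminyl-tRNA from glutamyl-tRNA, and beta-PheRS a subunit of the cytoplasmic phenylalanyl enzyme. The GatA signals were 98.6, 142 and 126 (122 ± 21.8, SD, n = 3), a level that overlaps that of SerRS. The GatA summit was 90 bp from GatA and 16 bp from the divergent P5cr. The beta-PheRS signals were 23.0, 45.8 and 46.3 (38.4 ± 13.3, SD, n = 3), with replicate 1 apart from the other two. The GatC signals were 32.6, 34.0 and 42.6 (36.4 ± 5.42, SD, n = 3), and its start is shared with PolG2 on the same strand.

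The partner subunits did not share these values. alpha-PheRS was listed in replicate 3 alone, at 18.3, and GatB, the remaining amidotransferase subunit, in replicate 1 alone, at 17.1. AIMP1, AIMP2 and AIMP3, scaffold proteins of the multi-synthetase complex, had pooled summits at ranks 7655, 6140 and 8732, below the threshold. Gcn2, the kinase that senses uncharged transfer RNA, had rank 5725, and crc, the fly ATF4 that acts after it, rank 5797. Slimp, a relative of the mitochondrial seryl enzyme, had rank 16425.

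The ribosomal protein genes, the other main parts of the translation machinery, showed the same order between compartments in the thresholded list. The shares with a summit in the pooled list hardly differed, but the pooled signals did. In the thresholded list 62 of 92 cytoplasmic ribosomal protein genes (67.4%) and 21 of 73 mitochondrial ones (28.8%) had a promoter summit. Both shares were above those of the corresponding synthetases, 44.4% and 6.67%. In the pooled list, beside 54.4% of all genes, a summit was at 87% of cytoplasmic and 84.9% of mitochondrial ribosomal protein genes. The shares of the synthetases there were 94.4% and 46.7%, the former above and the latter below that of the ribosomal protein genes. The median pooled signal was 155 over cytoplasmic and 62.5 over mitochondrial ribosomal protein genes, beside 35.1 over all genes. A summit was listed in every replicate for 82.6% of the cytoplasmic and 57.5% of the mitochondrial ribosomal protein genes, beside 37.4% of all genes. A divergent neighbour was present at 72.6% of mitochondrial and 39.1% of cytoplasmic ribosomal protein genes, the reverse of the order among the synthetases. These lists are set side by side without a test.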

How the data were processed

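Su(H)-GFP binding was measured by ChIP-seq in 3 biological replicates of 1 group of whole embryos. The deposited files were dm6 peak lists. Per the deposited file lists, each replicate list came from 1 library and a control, the pooled list from all 3 libraries, and the thresholded list of 3833 peaks from those lists by irreproducible discovery rate (IDR). Which aligner, peak caller and IDR cut-off the authors chose is not given in the sources used here. Each peak's signal is the authors' own deposited value, with no scaling for depth stated, so signals rank and describe peaks. Read depth is unknown, and no counting interval was derived. SDs are over 3 replicate lists and include differences in depth.

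A summit was the peak start plus the deposited offset. Genes and starts came from Ensembl release 115 (BDGP 6.54), sequence from the RefSeq Release 6 genome. For each gene the strongest summit within 500 bp of any start was taken from each list. Genes off the chromosome arms, 18 in number, were left out. Named genes were all synthetases, genes sharing a thresholded summit with one, and 11 other pathway genes. Also named were P5cr and PolG2, beside GatA and GatC, and Kdm4B, Rcd4 and Bx, beside synthetases. The members and lists were chosen with earlier results of these data known. Tools were Python 3.11.15, numpy 2.4.6 and matplotlib 3.10.9. The counting was checked on simulated data. Alternatives were other distances, peak subsets, start choices, replicate matching and motif windows. Lists for dm3 were not used.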

Additional observations from a re-analysis of the deposited data

How the results depend on the processing

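Of 100 alternative values, 21 moved by over 1.5-fold for counts or 1 SD for signals. Of the other 79, 36 are signal means without 1 of 3 replicates, which cannot move by 1 SD, and 8 rest on the summits already used, so the 79 is no measure of stability. With the 1000 strongest peaks the thresholded counts fell from 9 to 2 over all synthetases, from 8 to 2 in the cytoplasmic and from 1 to 0 in the mitochondrial set (5.98% of all genes). With the pooled list they were 24, 17 and 7. Where the synthetase start had to be the nearest coding start, the cytoplasmic count was 5 (14.6% of all genes), without SerRS, GluProRS and AspRS. Among genes with 1 start, chosen after seeing the data, the counts over all and over cytoplasmic synthetases were 5 of 24 (20.8%) and 4 of 11 (36.4%). These counts rest on fewer genes, and the shares in the main setting were 27.3% and 44.4%. With the strongest 3833 peaks of each replicate list, 5, 5 and 0 genes had a summit in every replicate, in place of 17, 12 and 5 (12.7% of all genes). Matching replicates to the pooled summit, also chosen after seeing the data, gave 3 mitochondrial genes. Leaving out 1 replicate gave 19 to 20, 12 to 15 and 5 to 7 genes, cytoplasmic medians of 31.2 to 34.6, mitochondrial medians of 13.7 to 14.7 and differences of 17.2 to 20.5. Within 1000 bp the medians were 38.0 and 17.0. Over thresholded genes they were 59.8 and 44.4, the latter LeuRS-m alone, with a difference of 15.4. Within 250 bp the mitochondrial median and the difference had no value. With the DRE core ATCGAT the counts were 10, 8 and 2 in place of 6, 5 and 1 (22.9% of all genes). What caused these shifts was not tested. No paired analysis was possible because there was 1 group. Depth is unknown, so it is unknown whether unlisted promoters lack signal or were too weak to be listed.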
